A study of Drosophila melanogaster with 2 samples.

Results

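The 785 peaks described here are binding sites of the fly protein CG14441 that lie inside introns of protein-coding genes, close to a transcription start site (TSS) but outside the promoter window. They were 15.3% of the 5115 peaks that the stricter set for the whole series placed on the 6 main arms of the Drosophila melanogaster genome (X, 2L, 2R, 3L, 3R and chromosome 4). The members were chosen by position alone: the summit, the base of highest enrichment in a peak, lay inside a protein-coding gene, in no annotated coding sequence or untranslated region, and more than 500 but at most 2000 bp from the nearest protein-coding TSS. They are called near intronic peaks below. They were set beside 2141 promoter peaks, whose summits lay within 500 bp of a TSS, 1253 deep intronic peaks, whose intronic summits lay beyond 2000 bp, and 823 intergenic peaks outside protein-coding genes. No value of the signal entered the choice from this set. The set itself holds only peaks that passed the authors' threshold on the irreproducible discovery rate (IDR), a measure of agreement between replicates.

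The data came from chromatin immunoprecipitation followed by sequencing (ChIP-seq), which recovers the DNA bound by a protein with an antibody. The 2 biological replicates formed 1 group of whole embryos aged 0 to 24 h from a strain that carries CG14441 fused to eGFP, a green fluorescent protein, and the antibody was against GFP. There was no second genotype, age or treatment, and whole embryos of all these ages mix every tissue and stage, so a peak cannot be assigned to a cell type. The thresholded sets of replicates 1 and 2 held 3782 and 3940 peaks. Read counts are not part of these lists, so the depth is unknown.

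CG14441 is a protein-coding gene without an assigned function. Introns of fly genes, and above all the long ones that follow the leading exon, often carry enhancers, which are short stretches where transcription factors bind and regulate a promoter. Many fly genes also have several alternative TSSs, so that an intron of the longest transcript can hold the region upstream of an internal promoter. Core promoters of broadly expressed fly genes carry characteristic motifs, such as the DRE bound by DREF and Motif 1 bound by M1BP, whereas enhancers usually lack them.

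The sequences at the strongest near intronic summits are shown because a short A/T sequence was the leading feature found at the summits, as described further below. Each stretch is given 5′ to 3′ from the dm6 assembly (RefSeq copy of release 6). Capitals mark ATTTTAA, and each stretch is printed on the strand that reads it so. Of the 20 strongest members, 17 lay on X, 2L, 3L or 3R, and 6 of these 17 carried that sequence within 50 bp of the summit.
CG11050 (chr2L:6612683-6612711, minus strand): atcttgtattaATTTTAAgcaaatatgca
ph-p (chrX:2137325-2137353, minus strand): gaagggttttcATTTTAAggatacgactg
chif (chr2L:16351183-16351211, plus strand): ccgaaatagacATTTTAAtgagtgtaatg
prage (chrX:1830770-1830798, minus strand): aatagtaatacATTTTAActtctccaatg
CG31635 (chr2L:6647220-6647248, plus strand): aagccgtgtttATTTTAAcacagtgttat
LPCAT (chrX:9579295-9579323, plus strand): caaatgtatgtATTTTAAgaaggaagagc

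The other 11 of the 17 had no ATTTTAA within 50 bp, and 4 of the strongest of these are shown for comparison, centred on the summit on the plus strand. G+C within 50 bp of the summit was 20.8% to 38.6% over the 20 strongest members.
CG32772 (chrX:4910340-4910368, plus strand): taagcccaaaaatttaaagttaagcggtt
norpA (chrX:4324978-4325006, plus strand): atttatagagcagtttagtttgttcaata
Trl (chr3L:14759495-14759523, plus strand): cgttactggactattttttccattggcta
NFAT (chrX:13640495-13640523, plus strand): tttcgtacacaataacacaatttctaaag

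Near intronic summits were denser than those farther inside introns. There were 75.8 summits per Mb over the 10.4 Mb of eligible bases, that is, intronic bases that meet the same distance rule. Promoter windows held 140 per Mb, deep introns 29.6 per Mb, intergenic DNA 20.5 per Mb, and the arms as a whole 38.2 per Mb. These densities are counts over territory without correction for how well reads map, and no test was made of them.

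Density was lower farther from the TSS, though not evenly so. In steps of 250 bp outward from 500 bp it was 98.1, 83.9, 66.0, 71.1, 58.0 and 69.5 per Mb. The high value next to the promoter window came from the upstream side. Upstream of a TSS, intronic bases between 500 and 750 bp away held 131 summits per Mb, and those between 750 and 1000 bp held 76.1 per Mb. Downstream of a TSS, they held 79.9 and 87.8 per Mb at the same distances. The promoter-window bases next to them, also intronic, held 180 per Mb between 250 and 500 bp upstream and 58.4 per Mb between 250 and 500 bp downstream.

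**Figure D1:**
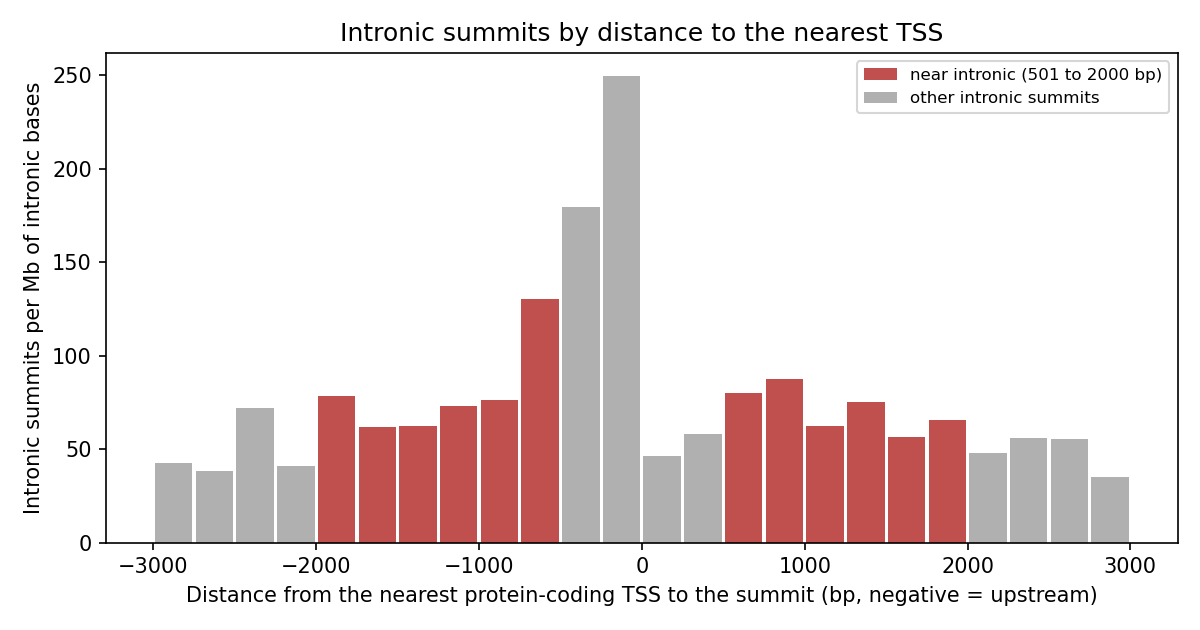
Intronic summits per Mb of intronic bases (y axis) in steps of 250 bp by distance from the nearest protein-coding TSS (x axis, negative upstream). Red bars are the near intronic peaks and grey bars other intronic summits: the red step next to the promoter window reached 131 per Mb upstream and 79.9 per Mb downstream.

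By gene structure, 484 members (61.7%) lay downstream of a TSS of their host gene, the gene whose intron holds the summit. Another 221 (28.2%) lay upstream of an alternative TSS of the host, and for 80 (10.2%) the nearest TSS belonged to another gene. The shares of these 3 kinds found in both replicates were 57.9%, 62.9% and 56.3%, and they had median signals of 119, 125 and 110. The leading intron of a transcript held 644 members (82.0%), while such introns made up 66.2% of the eligible bases, which gave 93.9 summits per Mb. Introns before the start codon held 471 members (60%) and 49.1% of the eligible bases. The median intron that held a member was 6246 bp long, with quartiles of 2476 and 13444 bp. Only 17 members (2.17%) lay within 500 bp of a TSS of another gene type, such as a non-coding RNA, although such bases were 5.44% of the territory.

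The X chromosome had the densest members, with 183 peaks or 89.5 per Mb of eligible bases. Arms 3R, 3L, 2R and 2L held 182, 157, 144 and 119 members, or 78.2, 77.3, 72.1 and 64.8 per Mb. The small chromosome 4, with 0.118 Mb of eligible bases, held 0. These counts leave out 28 candidates that meet the rule with a global IDR of 0.01 or below but are not in the main set. Of the 28, 21 lay on 3R. The 183 members on X include 4 in the tagged gene CG14441. The lead of X over 3R was not tested, with or without these peaks. The share found in both replicates was 66.1% on X, against 53.5% to 60.4% on the other 4 arms with members, a comparison that was not tested.

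The strength of a peak is given as the signal, the value the authors' peak caller assigned, whose scale is not stated. It has 1 value in the list for the whole series and 1 in each replicate's own list. The strongest near intronic peak lay in CG11050, at 2L:6612556-6612882, in an intron of 140 bp that is narrower than the peak, 1025 bp downstream of the TSS. It had signals of 1440 in replicate 1 and 1180 in replicate 2, a mean of 1310 ± 184 (SD, n = 2), and a series signal of 2620, which ranked it at place 3 of the whole set. G+C within 50 bp of that summit was 20.8%.

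Regulators of chromatin and transcription were the hosts of several of the strongest peaks. The peak in ph-p (X:2137200-2137506), which encodes a subunit of the Polycomb repressive complex PRC1, lay in intron 1, 509 bp upstream of an alternative TSS. Its signals were 1170 in replicate 1 and 969 in replicate 2, and its series signal of 2123 had place 8. The peak in Adf1 (2R:6662914-6663211), which encodes a MADF-domain transcription factor, had signals of 1134 and 806, with 781 bp between summit and TSS. HmgZ, a DNA-bending HMG-box protein, had its peak at 2R:21703136-21703644, 559 bp upstream of an alternative TSS, with 933 in replicate 1 and 718 in replicate 2. That summit lies in 2 overlapping host genes. The peak in Trl (3L:14759334-14759691), the gene of GAGA factor, which opens chromatin at GA-rich DNA, had signals of 666 and 513 in intron 2, 1540 bp downstream. NFAT, a transcription factor of the Rel family, had 657 and 500 at X:13640364-13640649, 1666 bp upstream of an alternative TSS. In all 5 of these genes replicate 1 gave the higher value.

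Other strong peaks lay in genes of signalling, excitability and metabolism. norpA, the phospholipase C of phototransduction, had signals of 712 in replicate 1 and 560 in replicate 2, in an intron before the start codon. KCNQ, a voltage-gated potassium channel, had 605 and 491, but the TSS nearest to that summit, at 752 bp, belonged to mlt. CG9663, an ABC transporter, had 489 and 374, and chif, related to the Dbf4 activator of the replication kinase Cdc7, had 472 and 449. Csk, a kinase that restrains Src, had 431 and 374, and LPCAT, a lysophospholipid acyltransferase, had 432 and 303. Of the remaining named peaks, CG32772 had 928 and 778, CG3726 had 815 and 590, CG9837 had 596 and 486, CG4496 had 434 and 406, and Reph had 421 and 342. Replicate 1 was lower in prage, with 383 against 400, and in CG31635, with 359 against 369, and higher in each other peak named here.

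**Figure D2:**
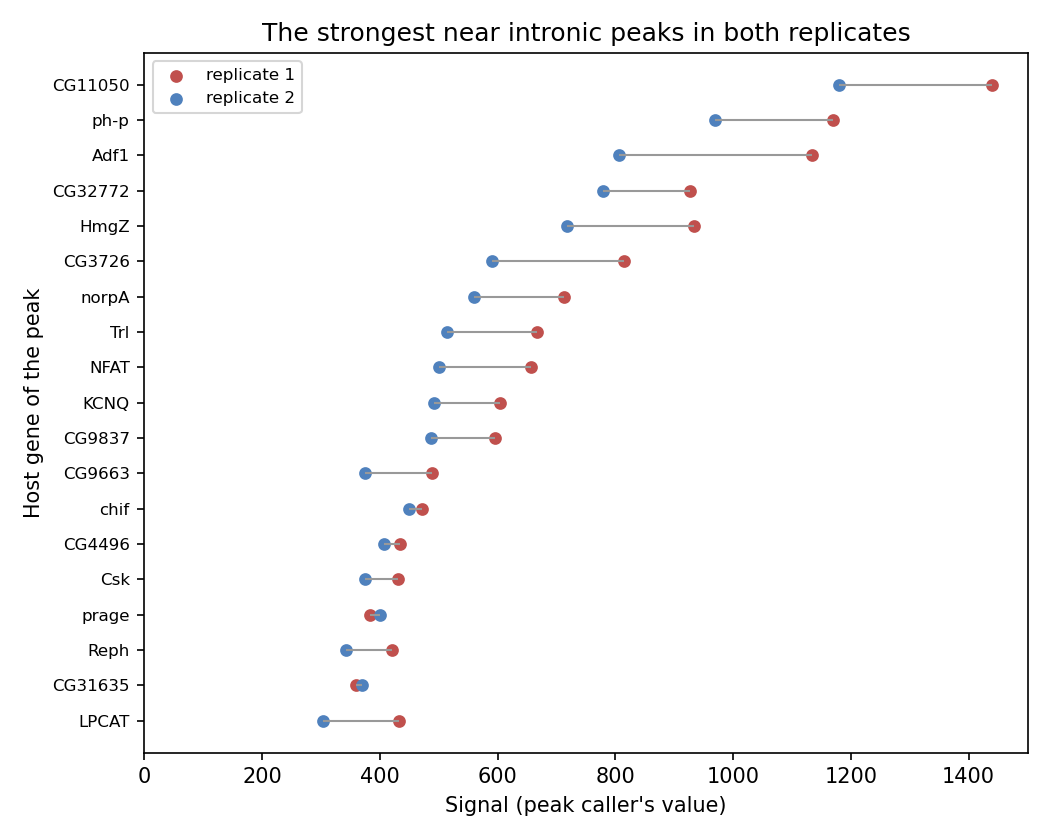
Signal (x axis, the peak caller's value) in replicate 1 (red) and replicate 2 (blue) for 19 of the 20 near intronic peaks of highest series signal found in both replicates, by host gene (y axis). Values run from 1440 and 1180 in CG11050 to 432 and 303 in LPCAT, and the 2 replicates keep a similar order.

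Across all members the signal was far lower than in these 20. The series signal had a median of 120, quartiles of 85.8 and 200, and a range of 2.17 to 2620. In the replicates' own lists the medians were 63.3 in replicate 1 and 60.3 in replicate 2. A candidate in both replicates' lists overlapped 783 of the 785 members, and replicate 1 was higher in 473 of these (60.4%), with a median ratio of replicate 1 to replicate 2 of 1.06. The coefficient of variation between the replicates had a median of 14.1%. The candidates' summits lay within 50 bp of the member's summit in both replicates for 631 members (80.4%). Signal kept no steady order along the distance band: its median was 126 in the step of 250 bp next to the promoter window and 111 in the farthest step, and the 4 steps between them gave 110 to 127.

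**Figure D3:**
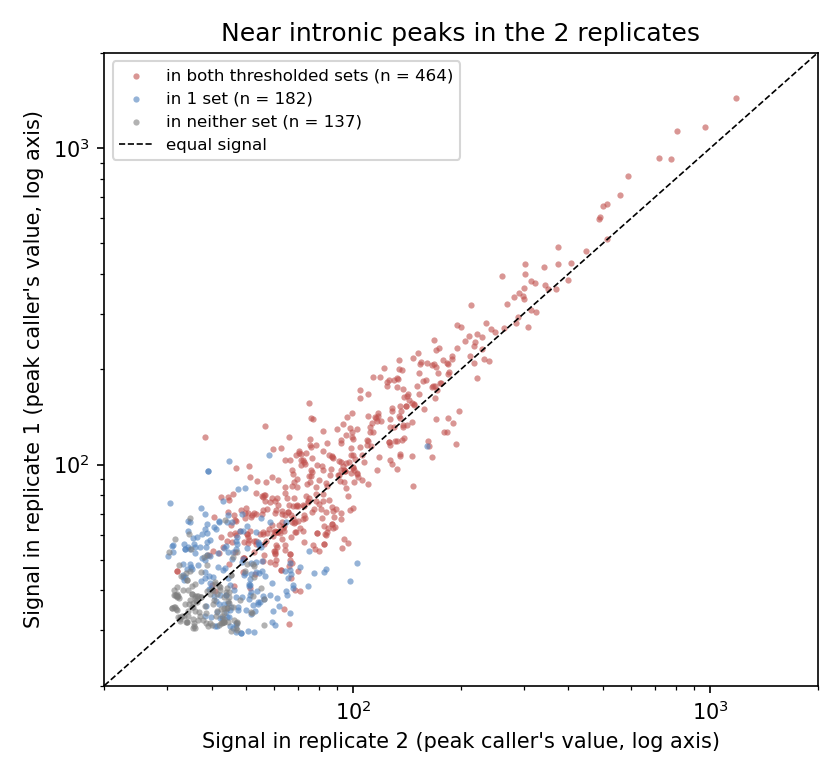
Signal of near intronic peaks in replicate 1 (y axis) and replicate 2 (x axis), both log axes of the peak caller's value, with the line of equal signal. Red points were in both replicates' thresholded sets, blue in 1 and grey in neither: peaks in neither set sit at the low end, and the strongest lie just above the line.

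In all, 464 of the 785 members (59.1%, exact Clopper-Pearson 95% interval 55.6% to 62.6%) overlapped a thresholded peak of each replicate by at least 1 bp. Over all 5115 peaks this share was 55.4%. Another 85 members were in replicate 1 alone, 98 in replicate 2 alone and 138 (17.6%) in neither. Members were in both replicates more often than deep intronic peaks, with 59.1% against 49.2% and an odds ratio of 1.49 (95% interval 1.24 to 1.79, adjusted exact p = 3.15e-05). They were also in both more often than intergenic peaks, at 48.5%, with an odds ratio of 1.54 (1.25 to 1.88, adjusted exact p = 3.15e-05). Against promoter peaks, at 61.2%, the odds ratio was 0.915 (0.772 to 1.09, adjusted exact p = 0.305), a difference that did not pass the test. These are two-sided Fisher's exact tests adjusted by Benjamini and Hochberg over the 3 comparisons. They treat peaks as independent, which peaks of the same gene may not be.

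Presence in both replicates moved with the signal. In quartiles of the signal of all peaks, from weakest to strongest, 11.0%, 27.9%, 90.3% and 99.5% of members were in both replicates, while deep intronic peaks gave 5.09%, 29.9%, 87.4% and 100%. Among peaks above the median signal the odds ratios no longer passed the test, at 1.42 against deep intronic peaks (adjusted exact p = 0.245) and 1.90 against intergenic peaks (adjusted exact p = 0.0755). The share of the difference that goes with signal was not tested further.

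In the series list, near intronic peaks were stronger than deep intronic and intergenic peaks and weaker than promoter peaks. The medians were 120 for members, against 130 for promoter, 104 for deep intronic and 105 for intergenic peaks. Of the members, 409 (52.1%, interval 48.5% to 55.6%) lay above 116, the median of all peaks, and by construction 50% of all peaks do. Promoter peaks did so in 56.5% of cases (odds ratio of members 0.837, interval 0.708 to 0.990, adjusted exact p = 0.0359), deep intronic peaks in 42.4% (1.48, 1.23 to 1.78, adjusted exact p = 6.43e-05) and intergenic peaks in 44.2% (1.37, 1.12 to 1.68, adjusted exact p = 0.00249), by the same Fisher's exact test. In the replicates' own sets the excess over deep intronic peaks kept its direction but did not pass, with odds ratios of 1.24 in replicate 1 (adjusted exact p = 0.0525) and 1.14 in replicate 2 (adjusted exact p = 0.321). Against intergenic peaks it was 1.34 in replicate 1 (adjusted exact p = 0.0477) and 1.04 in replicate 2 (adjusted exact p = 0.733), and against promoter peaks 0.822 in replicate 1 (adjusted exact p = 0.0525) and 0.753 in replicate 2 (adjusted exact p = 0.00634). Of the 100 strongest peaks of the set, 15 were members, 66 promoter, 8 deep intronic and 10 intergenic peaks. Over all peaks these kinds made up 15.3%, 41.9%, 24.5% and 16.1%, so members were about as frequent there as in the whole set.

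**Figure D4:**
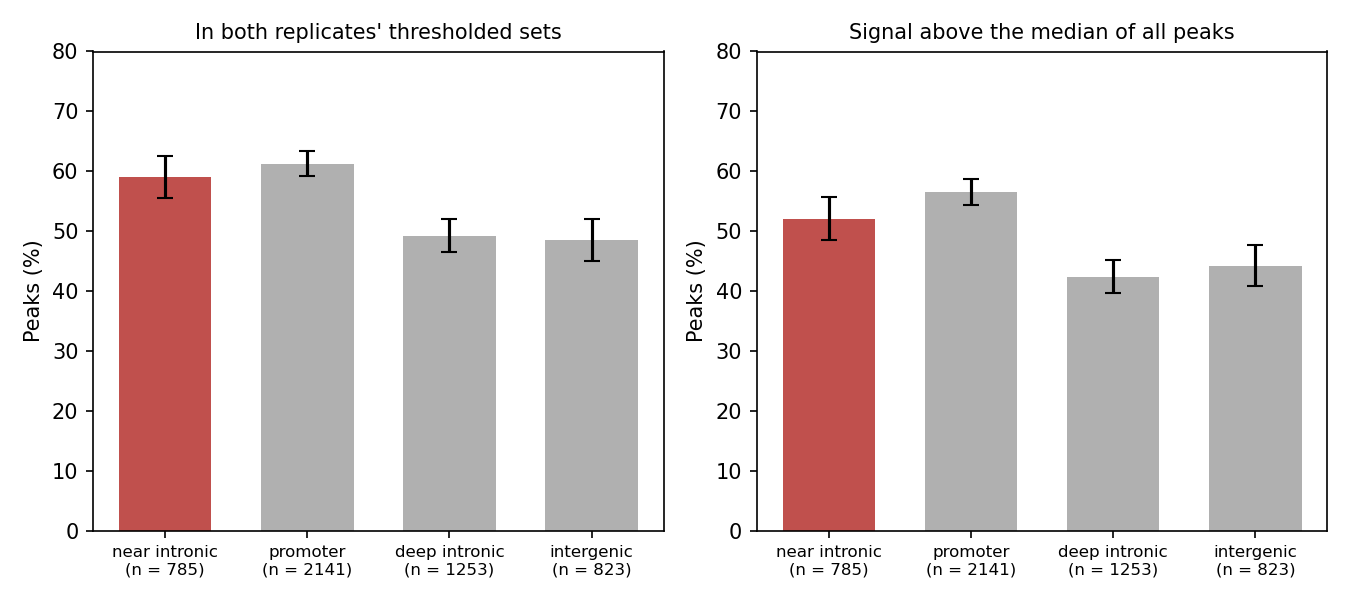
Percent of peaks in both replicates' thresholded sets (left) and with a signal above the median of all peaks (right), for near intronic, promoter, deep intronic and intergenic peaks. Bars are shares and error lines exact 95% binomial intervals: near intronic peaks reach 59.1% and 52.1%, between promoter and deep intronic peaks.

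The weakest members mostly overlapped a neighbouring peak. Of the members, 55 (7.01%) overlapped another peak of the set, and 27 of the 29 members with a series signal under 55 did so. Of the 730 members that overlapped no other peak, 437 (59.9%) were in both replicates. At the edges of the distance rule, the members nearest the promoter window were in CG10383 (signal 86.2) and in MESR3 upstream of Cyp310a1 (144), each 1 bp inside the edge, and in atos at 503 bp upstream (94.5). Just outside lay intronic summits near l(2)gl at 499 bp (63.2), jar at 498 bp (235) and CG10433 at 497 bp upstream (110). At the far edge, members lay in Tgi at 1999 bp (42.2), hh at 1995 bp (19.1) and IP3K2 at 1994 bp (169). Outside it followed hiw at 2002 bp upstream of be (183), SppL at 2009 bp (67.1) and pot at 2010 bp (217).

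The 785 members had 610 host genes, 6.68% of the 9127 protein-coding genes with eligible bases. A single member lay in 488 hosts, 2 in 86, 3 in 24 and 4 or more in 12. Hosts had more room: their median was 3000 eligible bases, against 337 in the other genes, and 437 of 610 hosts (71.6%) had 2 or more TSSs, against 31.1% of the others. When the genes were ordered by eligible bases and split into 4 equal groups, 0%, 0.220%, 5.62% and 20.9% were hosts.

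Tlk, which encodes the Tousled-like kinase of chromatin assembly, had the most members, with 6 in its introns on X. The 2 strongest had 233 in replicate 1 and 195 in replicate 2, and 199 and 136. They were the ones found in both replicates, and the other 4 had series signals of 75.9 to 113. All 5 members of CG42258 were in both replicates, led by a peak with 232 and 230, and the weakest overlapped a neighbouring member. CG1677 had 5 members, 4 of them in both replicates, in an intron whose nearest TSSs belonged to other genes: unc-119 for 2 peaks, and CBP, brk and CG42780 for 1 each. brk encodes Brinker, a repressor of Dpp targets, and the peak 898 bp upstream of its TSS had 74.8 in replicate 1 and 72.0 in replicate 2. CG32264 had 5 members, 2 of them in both replicates. HmgZ had 4, of which the strongest is given above and another lay 654 bp upstream of HmgD, its paralogue, with 120 and 75.7.

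Peaks were also found in the tagged gene itself. With no second genotype, binding at this gene cannot be told apart from an effect of the tagged copy. CG14441 (X:6699508-6719389, plus strand) held 12 summits of the main set. When the arms were divided into fixed steps of 20 kb, 2689 steps held a summit, and the 1 step with the most, 12, was that of CG14441. Of the 12 summits, 4 were near intronic. They had series signals of 126, 114, 65.4 and 7.70. The strongest had 46.5 in replicate 1 and 62.8 in replicate 2 and shared those candidates with the weakest, 204 bp away by summit. Without these 4 members, 462 of 781 (59.2%) were in both replicates.

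Host genes also had promoter peaks more often than other genes. Of the 610 hosts, 276 (45.2%) had a peak within 500 bp of one of their TSSs, against 20.9% of the 8517 other genes with eligible bases and 22.5% of all 9127. Among the genes with the most eligible bases, where 477 of the hosts were, the shares were 48.2% of hosts and 21.7% of the others. By peak, 47.9% of near intronic peaks had a host with a promoter peak, against 37.6% of deep intronic peaks. The nearest TSS itself had a peak within 500 bp for 213 members (27.1%), against 17.3% of all protein-coding TSSs. Members whose host had a promoter peak had a median signal of 126 and those without one 114.7. Hosts also had more TSSs and more room than other genes, as given above, and the part of this in the difference was not tested.

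The lists of genes described next are set beside the 6.68% of all genes with eligible bases that were hosts, and each gene's chance to be a host moves with its eligible bases, which averaged 1.21 kb over all genes. No list was tested, and the lists were chosen with earlier results of these data known. Among regulators, 6 of 23 BTB and zinc finger transcription factors were hosts (Trl, fru, rib, psq, sqz and Kr-h1), with a mean of 4.69 kb of eligible bases per gene. Trl led them with a series signal of 1185, and fru, which directs male courtship, and rib had 132 and 129. Nuclear receptors and ecdysone response genes had 4 hosts of 18 (4.07 kb): the coactivator tai with 194, ftz-f1 with 77.9, Hnf4 with 75.9, and EcR. Polycomb, Trithorax and chromatin remodelling genes, a list that also holds Adf1, had 4 of 30 (0.856 kb): ph-p, Adf1, the remodeller kis with 307, and Su(z)2. Insulator and architectural proteins had 1 of 11, which was Trl. Segmentation and homeotic genes had 2 of 23 (1.72 kb), the homeotic gene Abd-B with 119 and the ligand hh with 19.1.

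Signalling genes of the Notch, EGFR, Wnt, Hedgehog, BMP and JAK pathways had 8 hosts of 35 (2.38 kb). They were led by Mad, the effector of BMP signals, with 356, followed by Socs36E, an inhibitor of JAK signalling, with 228, and Stat92E, its transcription factor, with 212. The others were pnt, fz2, aos, aop and numb. Insulin, TOR and stress genes had 4 of 23 (2.59 kb): the insulin receptor InR with 264, the AP-1 subunit kay with 156, the kinase sgg with 108, and Akt. Among clock genes 2 of 13 were hosts (2.93 kb), the kinases dco with 111 and sgg.

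RNA-binding and splicing regulators had 8 hosts of 35 (4.74 kb), led by mub with 702, ps with 339 and the neuronal RNA-binding protein elav with 299. Cytoskeleton and adhesion genes had 7 of 31 (3.04 kb), led by tsr, the fly cofilin, with 622, Moe, which links actin to the membrane, with 588, and rhea, the fly talin, with 212. Neuronal excitability and synapse genes had 3 of 30 (4.61 kb): Syn with 269, dlg1 with 195 and the calcium channel subunit Ca-beta with 103. Axon guidance and neuron identity genes had 5 of 33 (2.84 kb), with elav, the phosphatase Ptp10D with 264 and the netrin receptor fra with 243 as the strongest.

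Among metabolic and housekeeping genes, lipid genes had 6 hosts of 21 (2.10 kb), led by the lipase bmm with 293, the lipid droplet protein Lsd-2 with 282 and Mtp with 96.1. Genes of ubiquitin and protein folding had 4 of 25 (0.873 kb), among them the chaperone Hsp83 with 425, ctrip with 112, and eff. Trafficking genes had 3 of 31 (0.949 kb), namely Rab11 with 265, Rab14 with 165 and Atg1 with 92.4. The list for glycolysis and carbohydrate metabolism had 2 of 24 (1.47 kb), Irp-1B with 181 and kdn with 166, neither of them an enzyme of glycolysis itself. Cell cycle genes had 2 of 26 (1.01 kb), Cdk4 with 104 and CycE with 53.5. Translation and small RNA host genes had 1 of 18 (0.719 kb), pAbp with 173. None of the 52 cytoplasmic and none of the 22 mitochondrial ribosomal protein genes with eligible bases was a host, and both lists averaged about 0.400 kb per gene.

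Summits were poorer in G+C than their surroundings. Within 50 bp of the summit, G+C had a median of 33.7% in members (quartiles 27.7% and 40.6%), against 41.6% in flanks 400 to 450 bp away and 38.6% in windows of the eligible bases. It was lower at the summit than in the flanks in 559 of 785 members (71.2%) and higher in 215. Promoter, deep intronic and intergenic summits had medians of 34.7%, 32.7% and 34.7%, so a low G+C was shared by all kinds of peak. The flanks were in turn richer in G+C than the windows of the eligible bases.

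**Figure D5:**
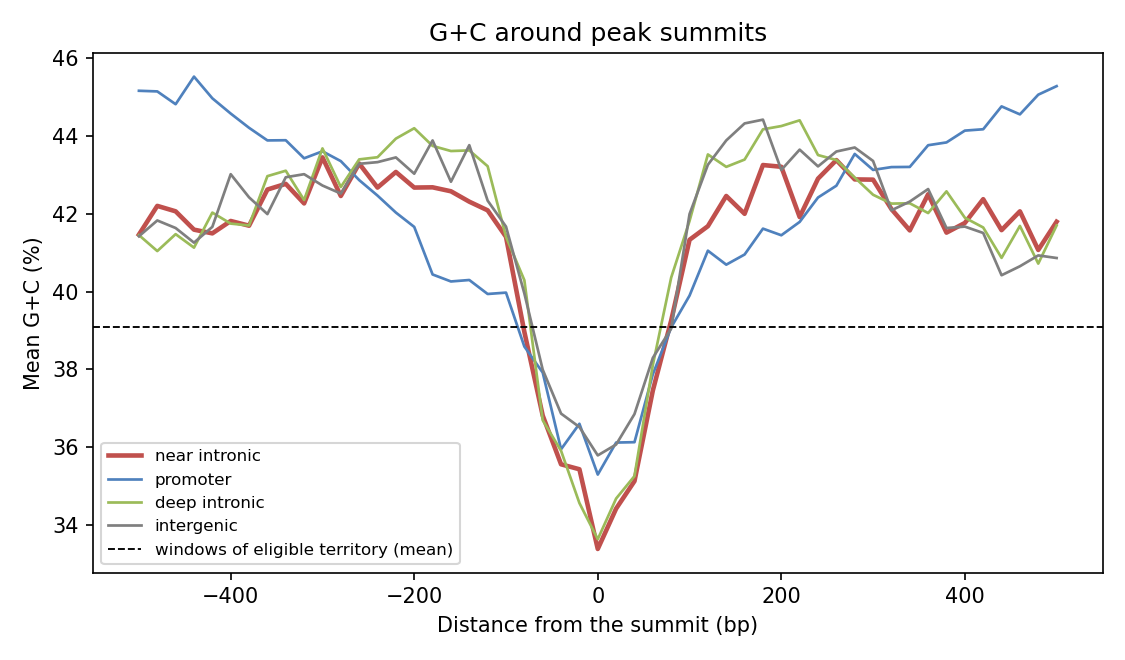
Mean G+C (y axis, %) by distance from the summit (x axis, bp) for near intronic, promoter, deep intronic and intergenic peaks, with the mean over windows of eligible bases dashed. All 4 kinds dip at the summit, and the near intronic curve lies below the dashed line there and above it from about 100 bp outward.

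Of 36 consensus motifs searched on both strands within 100 bp of the summit, 5 (13.9%) differed from the flanks 400 to 500 bp away in the same peaks, by a two-sided exact McNemar test adjusted by Benjamini and Hochberg over the 36. These 36 motifs were chosen with earlier results of these data known, which the adjustment does not cover. Both motifs that were more frequent at the summit were A/T-rich. The TATA box consensus TATAAA occurred in 263 members at the summit (33.5%) and 178 in the flanks (22.7%, adjusted exact p = 9.38e-05), and in 26.2% of windows of the eligible bases. Ohler motif 6, a core promoter element searched as GTATNTTT, occurred in 98 at the summit and 53 in the flanks (12.5% and 6.75%, adjusted exact p = 0.00202), and in 7.72% of windows. The 3 that were less frequent were rich in G+C or were GA repeats. GGGCGG, the GC box, occurred in 37 at the summit and 84 in the flanks (adjusted exact p = 1.70e-04), GCNGCCGC, searched for Adf1, in 14 and 39, and GAGAGAG, bound by GAGA factor, in 26 and 57 (adjusted exact p = 0.00542 for each of these). In windows of the eligible bases these 3 were closer to the summits than to the flanks. The GC box was in 4.71% of summits, 10.7% of flanks and 6.32% of windows, the Adf1 motif in 1.78%, 4.97% and 2.46%, and GAGAGAG in 3.31%, 7.26% and 3.35%. With flanks 900 to 1000 bp away, the TATA box consensus was the 1 motif of the 36 that passed. Over 10 alternative settings in all, Ohler motif 6 missed the threshold in 5, GAGAGAG in 3, the Adf1 motif in 2, the GC box in 1 and the TATA box in 0. Base composition differed between summit and flank in the same direction as these motifs, and its part was not tested.

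Near intronic summits carried the DRE, TCGATA, Motif 1 and Ohler motifs 5 and 7 less often than promoter summits did, while the TATA box and Ohler motif 6 did not pass the test. Of 72 tests of the 36 motifs against promoter and deep intronic peaks, 7 (9.72%) passed Fisher's exact test adjusted over the 72, and all 7 were against promoter peaks. The DRE, TATCGATA, occurred in 1 member (0.127%) and 154 promoter peaks (7.19%, adjusted exact p = 1.17e-18). TCGATA, a core of the DRE that BEAF-32 also binds, occurred in 8.15% of members and 20.6% of promoter peaks (adjusted exact p = 3.15e-15) and overlaps the DRE. Motif 1, GGTCACAC, occurred in 0.637% and 4.25% (adjusted exact p = 9.98e-07), and Ohler motif 7, CANCNCTA, in 6.11% and 16.5% (adjusted exact p = 2.64e-13). CAGCTG, Ohler motif 5, occurred in 7.52% and 13.1% (adjusted exact p = 3.00e-04), and CAGGGCTG, bound by the architectural protein ZIPIC, in 0.892% and 3.32% (adjusted exact p = 0.00159). Windows of the eligible bases held the DRE in 0.443%, TCGATA in 7.41% and Motif 1 in 0.290%. They held Ohler motif 7 in 4.24%, Ohler motif 5 in 7.81% and the ZIPIC motif in 0.231%. The rule itself keeps members out of promoter windows, so these tests do not show a lack relative to other intronic bases. Members were not tested against those windows. The call of Ohler motif 5 was lost in replicate 1's own set (odds ratio 0.707, adjusted exact p = 0.299) and among peaks above the median signal (0.677, adjusted exact p = 0.379), and that of ZIPIC with a window of 50 bp (adjusted exact p = 0.311). The TATA box occurred in 33.5% of members and 35.3% of promoter peaks (odds ratio 0.925, interval 0.775 to 1.10), and Ohler motif 6 in 12.5% and 11.5% (1.10, 0.847 to 1.42), both with an adjusted exact p of 0.797. CATATG, an E-box bound by Twist, was the 1 motif of the 7 that was more frequent in members, with 9.17% against 5.93% (odds ratio 1.60, interval 1.17 to 2.18, adjusted exact p = 0.0285), and that call was lost in 7 of 8 alternative settings, among them the set of each replicate alone (adjusted exact p = 0.301 in replicate 1 and 0.0838 in replicate 2).

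Against deep intronic peaks, 0 of 36 motifs passed the adjusted Fisher's exact test, and 2 had an unadjusted exact p under 0.05. These were Ohler motif 6, in 12.5% of members and 9.50% of deep intronic peaks (odds ratio 1.36, interval 1.01 to 1.82), and the heat shock element GAANNTTC, in 4.84% and 7.10% (0.665, 0.438 to 0.995). A p short of the threshold does not show equal shares: for Ohler motif 7 the interval of the odds ratio was 0.900 to 2.07.

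A search over all 8192 sequences of 7 bases, each joined with its reverse complement, found 27 (0.33%) that differed between summits, within 50 bp, and flanks 400 to 450 bp away. Of these, 22 were more frequent at summits, 14 of them made of A and T alone, and 5 were less frequent. Sequences of A and T alone are 64 of the 8192. G+C was lower at summits than in these flanks, and the part of base composition in these calls was not tested. ATTTTAA led, in 118 summits (15.03%) and 45 flanks (5.73%), with an adjusted exact McNemar p of 7.12e-06. Windows of the eligible bases held it in 7.67% of cases, promoter summits in 13.4% and deep intronic summits in 11.3%. TTTAAAA, which overlaps it, occurred in 121 and 48 (15.4% and 6.11%). The next 4 were also of A and T alone: TAAAATA in 12.5% and 4.84%, AAATAAT in 12.1% and 4.71%, TATTTAA in 10.6% and 3.82%, and TATTAAA in 8.79% and 3.06%. ATAATAT was in 9.30% and 3.82%, ATTTCAA in 9.55% and 4.08%, and AAAAAAT in 15.2% and 8.28%, which together with AGGGTAT completed the 10 of smallest p. Members with ATTTTAA had a median signal of 137, against 116 in those without it, and 66.9% of them were in both replicates, against 57.7%. Neither difference was tested, and ATTTTAA was itself picked from these summits. Presence in both replicates also moved with the signal, as given above.

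AGGGTAT was the 1 of the 10 that holds more than 1 G or C. It occurred in 21 summits (2.68%) and 1 flank (0.127%, adjusted exact p = 0.0121 by the exact McNemar test), and in 1.10% of windows, 2.24% of promoter summits and 2.31% of deep intronic summits. These shares were not tested against each other. The strongest members on X, 2L and 3R that carry it are shown, with AGGGTAT in capitals and their series signals.
ush, signal 318 (chr2L:522028-522056, minus strand): ttcacctgaacAGGGTATctagttttcgt
CG33181, signal 316 (chrX:8493041-8493069, minus strand): aaggttattaaAGGGTATtaatttgttaa
yrt, signal 237 (chr3R:13433730-13433758, minus strand): agaagtaagtcAGGGTATttattgtccat
CG9981, signal 200 (chrX:16404163-16404191, minus strand): gaagtaattatAGGGTATcgcctagtcgg

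A match is a description of the letters and not a binding site. Of the 21 members with it, 15 (71.4%) were in both replicates, and their median signal of 120 was that of the members without it.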

How the data were processed

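The deposited lists are peaks called by the authors on dm6, per the file names and labels, from ChIP-seq libraries with fragments of 200 to 800 bp per the labels. Neither the aligner nor the peak caller is named (not given in the sources used here). Of 8 deposited lists, 7 were used: thresholded and ranked lists for each replicate and the series. The deposited signal is the authors' peak caller's value of unstated scale, and the deposited −log10 column of the authors is the global irreproducible discovery rate (IDR), at most 0.01 for thresholded peaks. The deposited summit offsets of the authors, a distance in bp (unit other), gave the summits. Genes came from Ensembl release 115 (BDGP annotation 6.54), sequence from the RefSeq copy of dm6. A member's replicate signal is that of the overlapping candidate with the nearest summit in that replicate's ranked list. Tests were two-sided Fisher's exact and exact McNemar tests, Benjamini-Hochberg adjusted, with a threshold of 0.05. The McNemar tests alone were checked on simulated sequences. Those had the same base composition at summit and flank, unlike the members, so the check does not cover calls that go with composition. Intervals are exact at 95% and cover counting error alone. Members, gene lists (28 of 529 symbols unmatched) and motifs were chosen with earlier results of these data known. Genes named are CG14441, the 20 strongest members in both replicates (1 is not reported here), the 5 hosts with most members (ties by summed signal), up to 3 per list by signal (further hosts are listed by name), the 10 leading 7-base sequences, each motif past the threshold, and the 3 members each side of each distance edge. The brk, HmgD and AGGGTAT examples were added after their values were seen. Alternatives were the other series set, each replicate's own set, peaks above the median signal, other distance bands, TSSs of all gene types, and other overlaps, windows and controls. Python 3.11.15, numpy 2.4.6, pandas 2.3.3, scipy 1.17.1 and matplotlib 3.10.9 were used.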

Additional observations from a re-analysis of the deposited data

Results flagged for a closer look

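The ranked series list held 10380 candidates that meet the rule, 813 of them with a global IDR of 0.01 or below. Of these, 28 were not in the main set, and 21 of the 28 lay on 3R. The 2 strongest had signals far above most members. A candidate in ush (2L:480924-481260), 1413 bp upstream of cbt, had a series signal of 2708, with 1526 in replicate 1 and 1236 in replicate 2, above the strongest member. A candidate in Lk6 (3R:11760898-11761184), 969 bp upstream of an alternative TSS, had a series signal of 1714, with 927 and 800. Both were drawn out because they carry signal outside the main set, and neither was in the other series set or in either replicate's thresholded set. Why they are outside was not tested.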

How the results depend on the processing

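No pairing of samples between groups was possible because the replicates form a single group. With a replicate left out, so that the set of the other one is used, the member share was 15.5% to 16.7%, the odds ratio for signal above the median 0.753 to 0.822 against promoter, 1.14 to 1.24 against deep intronic and 1.04 to 1.34 against intergenic peaks, the 7-base calls 21 to 46 and the median G+C 32.7% to 33.7%. Motif calls were 5 to 7 at summits, and 5 to 7 against other peaks. Among peaks above the median signal, the odds ratio for presence in both replicates was 1.38 against promoter peaks, on the other side of 1, and 1.42 and 1.90 against deep intronic and intergenic peaks, all short of the threshold, and the median G+C was 31.7%. In the other series set the odds ratio for both replicates against promoter peaks was 0.845 and passed (adjusted p = 0.0340, Fisher's exact test). The member share was 11.4% with a band from 750 to 2000 bp, 11.7% with one from 500 to 1500 bp and 16.7% with TSSs of all gene types. With the band up to 1500 bp the odds ratio for signal against promoter peaks was 0.848 and did not pass. Motif calls at summits fell to 1 with flanks 900 to 1000 bp away. The 7-base calls were 5 with the band from 750 bp, 49 with TSSs of all gene types, 91 with a window of 100 bp, 221 with sequences of 6 bases, and 16 without peaks that overlap another, an alternative chosen after seeing the data. G+C within 100 bp was 35.8%. The causes were not tested. In all, 68 alternative values of these summary results, some of them given above, kept direction and call or, without a test, stayed near the main value (counts within 1.5 times). Of the others, 14 without a test moved away from the main value, 7 lost the call, 1 gained a call and 1 changed direction. For the 12 named motif results, 85 alternative values kept them and 21 lost the call. The lists hold no read counts, so no limit from depth can be given.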
